A study of Drosophila melanogaster with 3 samples.

Results

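The genes described here encode the main contractile proteins of Drosophila melanogaster muscle: the muscle actins Act57B and Act87E, the myosin heavy chain Mhc, the myosin light chains Mlc1 and Mlc2, the paramyosin gene Prm, the tropomyosins Tm1 and Tm2, and the troponin genes up and wupA. They are 10 of 13945 protein-coding genes on the chromosome arms, and were chosen by name for what they encode. Every deposited peak summit inside a gene body or within 5 kb of it was collected. The study mapped where E(spl)mβ, a basic helix-loop-helix repressor that Notch signalling switches on, sits on chromatin. Whole embryos of both sexes, collected between 0 and 24 h, came from a stable transgenic line in which E(spl)mβ carries a green fluorescent protein (eGFP) at its C-terminal end. All samples belonged to this 1 group, with 3 biological replicates that the labels number 1 to 3. The fusion was precipitated with an antibody against GFP from fragments of 200 to 800 bp, and the control libraries used in peak calling were not analysed here. All replicates shared the transgene, the endogenous copies of E(spl)mβ were not described, and no embryos without the fusion were analysed here.

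Striated muscle shortens when thick filaments of myosin slide along thin filaments of actin. Tropomyosin lies along the thin filament, and the troponin complex moves it aside when calcium arrives, which exposes the sites that myosin heads bind. In insects the thick filament is built around a core of paramyosin. In the Drosophila embryo the transcription factor MEF2 switches on many contractile protein genes as myoblasts fuse into muscle fibres, and Notch signalling acts earlier, when muscle progenitors are singled out from the mesoderm. E(spl) proteins recruit the corepressor Groucho and are known to bind boxes of the type CACGTG. A peak from whole embryos does not tell in which cells a site was bound, and fewer cells with the site bound cannot be told apart from weaker binding in each.

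The deposited lists hold 30000 peaks for each replicate and for the pooled reads, and 8549 peaks in the IDR list, which keeps peaks whose rank was reproducible between replicates (IDR, irreproducible discovery rate). The IDR peaks were the 8549 strongest of the pooled list, so the weakest IDR signal of 286.5 divides the pooled list. The signal is the authors' own value per peak, relative to their control. It is on its own scale in each list, with medians of 156.5 in the pooled list and of 84.8, 43.1 and 49.6 in replicates 1, 2 and 3, so ranks within a list are given beside it. How deeply the libraries were sequenced is unknown, and the intervals given cover the counting of genes only. The study has 1 group, so no test was run, and all comparisons with other genes are descriptions.

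IDR summits stood at a start of 2 of the 10 contractile protein genes, and summits of the pooled list at a start of 9. Act87E and Tm1 (20%, exact 95% binomial interval 2.52 to 55.6%) carried an IDR summit no more than 1000 bp from a transcription start site (TSS). The share of all protein-coding genes was 32.1%, which lies inside that interval. In the pooled list 9 of the 10 genes had a summit within 1000 bp of a TSS, against 47.2% of all genes, and 8 of the 10 had one in every replicate list, against 41.6%. For this count the replicate summits of a gene did not have to lie at the same position or at the same start. For 7 of the 10 genes the pooled summit at the start was too weak for the IDR list, a state found at 15.1% of all genes. These 7 were Mhc, Act57B, Mlc2, Tm2, up, wupA and Prm. Only at Tm2 and wupA did all 3 replicates have a summit within 100 bp of the strongest pooled summit at the start. At Mlc2 and Prm 2 replicates did, and at Mhc, Act57B and up only 1. In the pooled list nearly every contractile protein gene thus had a summit at its start, and most of those summits ranked below the IDR list.

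Counted over the gene body and 5 kb on each side, 5 of the 10 genes held an IDR summit (50%, interval 18.7 to 81.3%), against 59.0% of all genes. The 5 were Mhc, Act57B, Act87E, Tm1 and Mlc1. Inside gene bodies IDR summits were found in Tm1 alone, 1 of the 10 genes against 16.9% of all genes. The contractile protein genes are long, with a median length of 7055 bp against 2166 bp for all genes. Among the 5743 protein-coding genes as long as the shortest to the longest of them, 42.2% had an IDR summit within 1000 bp of a TSS, 67.3% had one in the body or within 5 kb, and 17.1% had a pooled summit but no IDR summit within 1000 bp. Per 10 kb of body and flanks, the contractile protein genes held 0.595 IDR summits, against 0.848 for all genes and 0.966 for the genes of the same length range. The pooled summits numbered 3.32 per 10 kb, against 2.43 for all genes and 2.7 for those of the same length range. Without Tm1 the other 9 genes held 0.31 IDR summits and 2.67 pooled summits per 10 kb, so that their pooled density was no higher than that of the genes of the same length range. Leaving out replicate 1, so that only IDR summits in one of the 8549 strongest peaks of both replicate 2 and replicate 3 counted, gave 0.397 IDR summits per 10 kb for the 10 genes, against 0.659 for all genes.

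**Figure D1:**
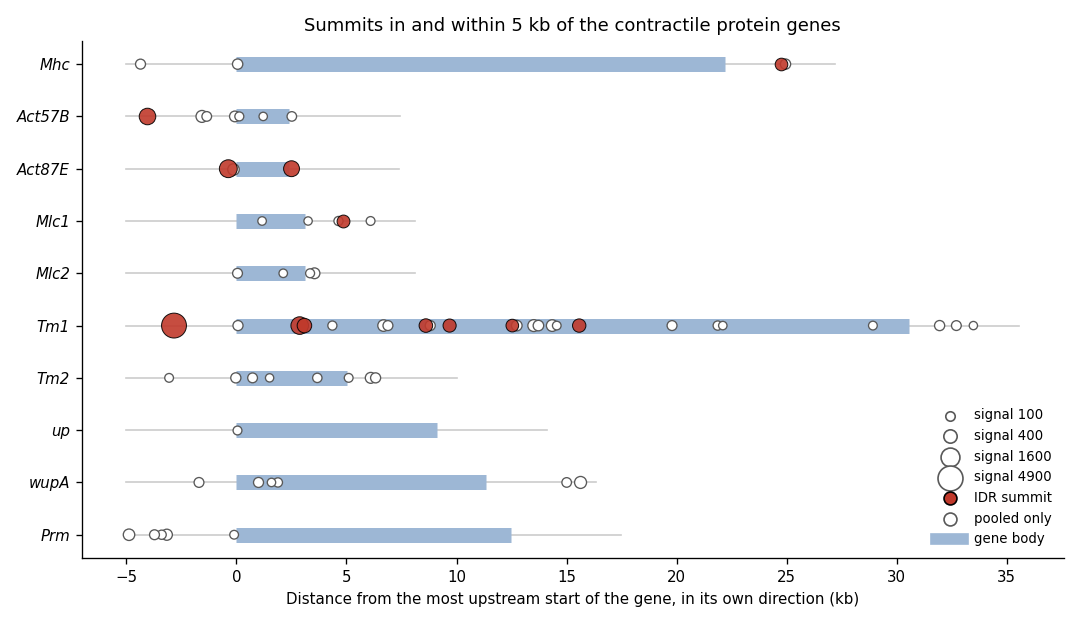
Summits of the pooled list along each contractile protein gene (horizontal axis, kb from the most upstream start in the direction of transcription), with filled circles for IDR summits, open circles for summits in the pooled list only and circle size for signal. Of 63 summits 12 are IDR summits and 7 of those stand at Tm1, while Tm2, Mlc2, up, wupA and Prm have open circles only.

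The windows of the 10 genes held 63 pooled summits, 12 of which were IDR summits. All 3 replicate lists had a summit within 100 bp of 10 of these 12 (83.3%, against 87.4% of all IDR summits). Each of the 12 fell in one of the 8549 strongest peaks of at least 2 replicates, and 8 of them did so in all 3. Over the whole IDR list, 5790 of 8549 summits did so in all 3, a similar share. Only 6 of the 12 lay within 1000 bp of a TSS of a contractile protein gene, and 8 were nearer to a contractile protein gene's TSS than to any other. By position, 8 of the 12 were within 500 bp of a TSS of any gene (66.7%, against 41.7% of all IDR summits), 2 were in introns (16.7%, against 37.1%) and 2 were intergenic (16.7%, against 19.7%). The sets are unlike, since the 12 were collected in or within 5 kb of genes and the whole list was not. Most of the 8 lay in the window of Tm1, which has 8 annotated starts. Of the 51 summits in the pooled list only, 11 had a summit of all 3 replicates within 100 bp. The share over all summits in the pooled list only was not computed, so this count stands without a comparison.

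Act87E, 1 of the muscle actin genes of the larval body wall (FBgn0000046, 3R, 13425983 to 13428375, plus strand, Release 6 coordinates), had the strongest summit of the contractile protein genes other than Tm1, the upstream of its pair. It carried an IDR summit at each end. The upstream summit, at 13425615, lay 368 bp before the first TSS with a pooled signal of 1291.1 and rank 1215, and in replicates 1, 2 and 3 it had signals of 518.8, 293.1 and 452.5 at ranks 1445, 1238 and 1182. It stood among the strongest peaks of each replicate. The downstream summit, at 13428487, lay 112 bp past the 3′ end of the gene, in the gap before the convergent gene yrt, with a pooled signal of 801.4 and rank 2533. Its replicate signals were 387.1, 181.5 and 227.4, at ranks 2339, 2648 and 3122. The 101 bases centred on each summit are shown because both are very rich in A and T. Only 17.8% of bases were G or C at the upstream summit and 26.7% at the downstream one. Capitals mark a MEF2 box that begins 19 bp to the right of the upstream summit, and the 101 bases of the downstream window held none of the 9 motifs searched. The letters are the plus strand of Release 6.
Act87E upstream, chr3R:13425565-13425665: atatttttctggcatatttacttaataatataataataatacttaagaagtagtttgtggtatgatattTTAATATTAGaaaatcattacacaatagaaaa
Act87E downstream, chr3R:13428437-13428537: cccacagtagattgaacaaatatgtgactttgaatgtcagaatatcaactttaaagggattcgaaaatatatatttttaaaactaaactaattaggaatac

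Tropomyosin, the coiled-coil protein of the thin filament, comes from a pair of neighbouring genes that differed in these lists. Tm1 (FBgn0003721, 3R, 15278220 to 15308779, plus strand) makes both muscle and cytoskeletal isoforms from alternative starts, and had 7 IDR summits and 24 pooled summits in its window. Tm2 (FBgn0004117, 3R, 15310193 to 15315197, plus strand), a muscle tropomyosin gene that starts 1413 bp past the end of Tm1, had 8 pooled summits and no IDR summit. The IDR summits inside Tm1 lay in its first part, between 2875 and 15573 bp from the first TSS. The remaining 14986 bp of the gene held no IDR summit and 4 pooled ones.

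Of the 7 IDR summits at Tm1, the strongest was not at a Tm1 start. It lay at 15275385, 2835 bp upstream of Tm1, between the divergent starts of CG4338 at 137 bp and Cp190 at 144 bp. Cp190 encodes a protein of chromatin insulators. The pooled signal there was 4849.3 at rank 82, and replicates 1, 2 and 3 gave 1903.6, 1091.2 and 1868.8 at ranks 107, 79 and 53. The first TSS of Tm1 itself had only a weak summit, 72 bp downstream, with a signal of 130.0 in the pooled list.

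All other starts of Tm1 had an IDR summit 61 to 408 bp away. The start at 15281371 had a pair. The summit 276 bp upstream of it had a pooled signal of 1211.1 at rank 1351, with 470.9, 286.3 and 449.4 in replicates 1, 2 and 3 at ranks 1698, 1280 and 1203. The summit 61 bp upstream had 562.2 at rank 4020, with 184.0, 200.9 and 81.2 in the replicates at ranks 6556, 2291 and 9460. The first of this pair was thus near the same rank in every replicate. The nearest replicate 3 summit of the second had a rank past 8549, although the position itself fell in one of the 8549 strongest peaks of all 3 replicates.

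Further into Tm1 the IDR summits were weaker. The summit 408 bp downstream of the start at 15286419 had a pooled signal of 427.4, with 215.0, 98.9 and 84.4 in replicates 1, 2 and 3. The summit 107 bp upstream of the start at 15288012 had 375.1, with 213.3, 83.1 and 89.3 in the replicates. These 2 summits ranked 5565 and 6407 in the pooled list, in the weaker part of the IDR list. The summit at 15290754, 190 bp upstream of the start at 15290944 and 45 bp inside the nested gene CG45218, had 322.3, with 171.3, 55.4 and 97.6 in the replicates. It is 1 of the 2 IDR summits without all 3 replicate summits within 100 bp, since those of replicates 1 and 3 lay 141 and 105 bp away. The last IDR summit, in an intron 2847 bp past the nearest start, had 404.1, with 172.4, 95 and 156.1 in the replicates.

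The 101-base windows of 4 summits at Tm1 starts are shown because the pair at the start at 15281371 differs in base composition and the other 2 windows hold boxes of the E(spl) type. At 15281095 only 19.8% of bases were G or C, against 48.5% at 15281310. At 15286827 and 15287905 the shares were 51.5% and 50.5%. Capitals mark matches to the specific motifs searched, on either strand, and leave further matches of the general E-box CANNTG in lower case. They are GAGAG at 15281310, GAGAG repeats and CACGTG at 15286827, and CACGCG and CAGCTG at 15287905. The CACGTG is part of GGCACGTG on the other strand and begins 43 bp to the right of its summit. The letters are the plus strand of Release 6.
Tm1 summit 15281095, chr3R:15281045-15281145: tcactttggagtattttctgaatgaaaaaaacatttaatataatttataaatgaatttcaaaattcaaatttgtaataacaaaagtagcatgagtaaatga
Tm1 summit 15281310, chr3R:15281260-15281360: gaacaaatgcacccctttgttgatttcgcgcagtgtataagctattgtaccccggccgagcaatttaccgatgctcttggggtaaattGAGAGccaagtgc
Tm1 summit 15286827, chr3R:15286777-15286877: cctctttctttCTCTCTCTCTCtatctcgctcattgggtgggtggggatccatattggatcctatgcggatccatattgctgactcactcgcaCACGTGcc
Tm1 summit 15287905, chr3R:15287855-15287955: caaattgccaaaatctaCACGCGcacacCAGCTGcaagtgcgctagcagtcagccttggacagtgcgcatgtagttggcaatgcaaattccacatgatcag

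**Figure D2:**
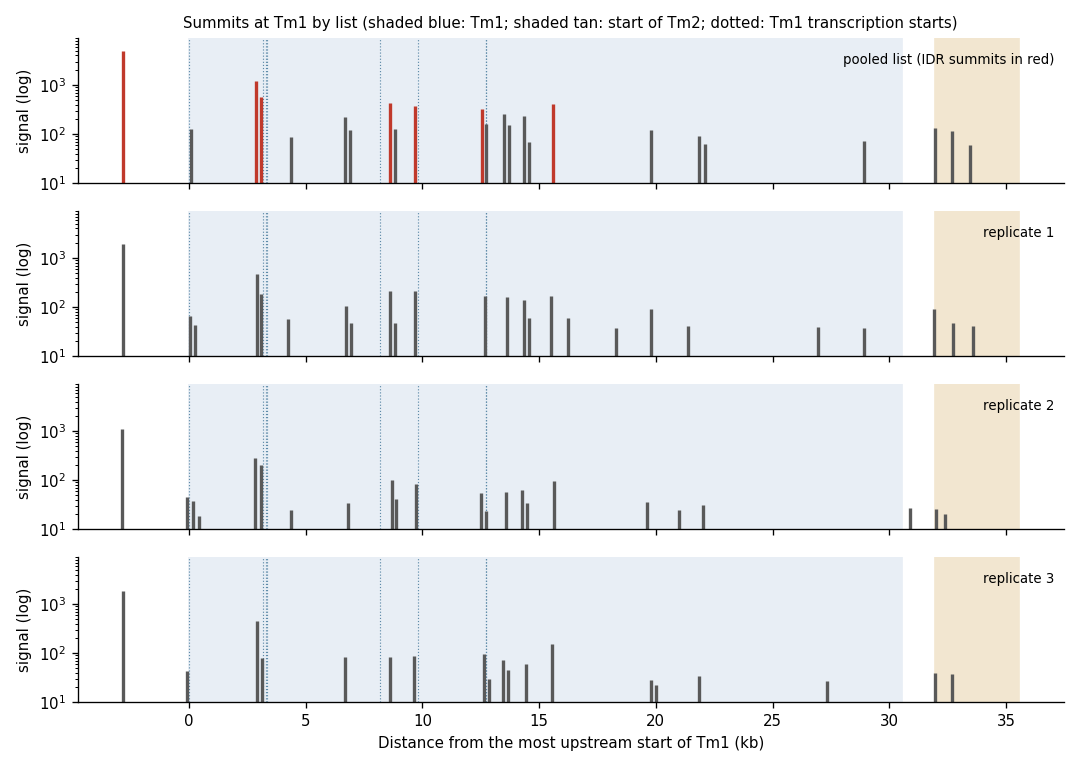
Summits around Tm1 in the pooled list and in replicates 1 to 3 (height, signal on a log scale; horizontal axis, kb from the first start), with IDR summits in red, Tm1 shaded blue, the start of Tm2 shaded tan and the starts of Tm1 as dotted lines. The 4849.3 summit upstream of Tm1 and the 1211.1 summit at the start at 15281371 lead in the pooled list and are tall in all 3 replicates, while the last 14986 bp of Tm1 and the start of Tm2 have low summits only.

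At Tm2 the strongest summit at a start lay 27 bp upstream of the first TSS. Its pooled signal was 133.8 at rank 17093, and the strongest summits within 1000 bp of a TSS had signals of 91.6, 25.4 and 38.6 in replicates 1, 2 and 3, at ranks 13962, 23967 and 18678. All 3 replicates placed a summit within 100 bp of it. None of the replicates ranked its strongest summit at a start of Tm2 among its 8549 strongest peaks. The nearest IDR summit to Tm2, at 15320274, lay 5077 bp past the gene, closer to the start of CG44040, with a signal of 672.0.

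Act57B, the other muscle actin gene studied (FBgn0000044, 2R, 20944021 to 20946431, plus strand), is a known direct target of MEF2. Its 1 IDR summit lay in intergenic DNA 4083 bp upstream, at 20939938, with a pooled signal of 949.5 at rank 1979. The replicate signals there were 415.7, 230.6 and 307.1, at ranks 2087, 1831 and 2129. No other gene's start was nearer to this summit. A MEF2 box began 20 bp to its left.

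The start of Act57B had a weaker summit, 69 bp upstream of the TSS, with a pooled signal of 165.0 at rank 14329. Within 1000 bp of the TSS the strongest replicate summits had signals of 119.6, 23.2 and 29.3, at ranks 10706, 25603 and 23518, and those of replicates 2 and 3 lay 214 and 206 bp upstream. The start was thus ranked higher in replicate 1 than in replicates 2 and 3. Between the start and the IDR summit, a pooled summit 1565 bp upstream had a signal of 254.6 at rank 9592, near the weakest IDR signal of 286.5, and was found by all 3 replicates within 100 bp. The window around it had only 11.9% G or C, whereas the summit at the start had 64.4%, the lowest and the highest shares of any summit of the contractile protein genes.

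Mhc encodes the heavy chain of muscle myosin, the motor of the thick filament (FBgn0264695, 2L, 16766566 to 16788766, plus strand). Its window held 4 pooled summits, 1 of them an IDR summit. The IDR summit, at 16791295, lay 2529 bp past the end of Mhc, 273 bp upstream of the start of CG17928 and 574 bp upstream of that of Cyt-b5-r. Its pooled signal was 321.1 at rank 7601. The replicate signals were 190.4, 43.0 and 99.4, at ranks 6297, 15066 and 7777, so that replicate 2 did not place it among its 8549 strongest. At the start of Mhc itself a pooled summit lay 55 bp downstream of the TSS, with a signal of 144.1 at rank 16069. The strongest replicate summits within 1000 bp of a TSS had signals of 88.1, 32.7 and 39.4, at ranks 14459, 19404 and 18374. They lay at 16766492, 16766753 and 16768163, so the replicates did not place them at the same position. Only 1 replicate had a summit within 100 bp of the pooled one. All of these summits at starts of Mhc, pooled and replicate, ranked below the last IDR rank.

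The light chains wrap the lever arm of the myosin head. Mlc1, the alkali light chain gene (FBgn0002772, 3R, 27657078 to 27660177, minus strand), was the 1 gene of the 10 with no pooled summit within 1000 bp of its start. Its nearest pooled summit lay 1166 bp inside the gene, with a signal of 67.3. Only replicate 2 had a summit within 1000 bp, 395 bp from the TSS, with a signal of 26.4 at rank 23226. The IDR summit in its window, at 27655339, lay 1739 bp past the end of Mlc1 in an intron of tau, whose start was the nearest, 1456 bp away. The pooled signal there was 344.4 at rank 7023, and the replicate signals were 166.6, 77.6 and 96.1, at ranks 7380, 8105 and 8042.

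Mlc2, the regulatory light chain gene (FBgn0002773, 3R, 30171438 to 30174551, minus strand), had no IDR summit in its window, and the nearest lay 7145 bp from the gene with a signal of 359.4. A pooled summit 50 bp downstream of its TSS had a signal of 117.8 at rank 18917. The replicate signals were 69.5, 28.5 and 36.0, at ranks 17923, 21889 and 19832, and their summits lay 59, 13 and 14 bp from the TSS. The strongest pooled summit in its window, at 30171004 with a signal of 170.3, lay 203 bp inside the neighbouring gene Rsod.

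Prm, the gene of the thick filament core protein paramyosin (FBgn0003149, 3L, 8732858 to 8745310, minus strand), had the weakest summit at a start. It lay 104 bp upstream of a TSS with a pooled signal of 73.4 at rank 26167. Replicates 1 and 2 had signals of 42.8 and 22.9 there, at ranks 25724 and 25792, and replicate 3 had no summit within 1000 bp. The stronger pooled summits of its window, with signals of 191.9 and 217.9, lay 3162 and 4879 bp upstream of Prm and nearer to the start of CG13306. The nearest IDR summit lay 6161 bp from the gene.

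The troponin genes had weak summits only. The gene up encodes troponin T, the subunit that ties the complex to tropomyosin (FBgn0004169, X, 13593474 to 13602578, minus strand). Its window held 1 pooled summit, 10 bp downstream of a TSS, with a signal of 77.3 at rank 25307. Within 1000 bp of a TSS the strongest replicate summits had signals of 49.7, 37.4 and 24.4, at ranks 23233, 17208 and 27190. They lay 4, 892 and 415 bp from the nearest start of up, so the replicates did not place them at the same position. The nearest IDR summit lay 14236 bp from the gene, the longest distance among the 10 genes, and belonged to the start of Tango2.

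The gene wupA encodes troponin I, the inhibitory subunit (FBgn0283471, X, 18105568 to 18116922, minus strand). Its strongest pooled summit near a start lay 907 bp downstream of a TSS, with a signal of 126.6 at rank 17825 and a summit of every replicate within 100 bp. Those summits of replicates 1, 2 and 3 had signals of 47.0, 43.2 and 39.3, at ranks 24132, 14991 and 18388. The strongest replicate summits within 1000 bp of a TSS lay elsewhere, at 18116898, 18117421 and 18115405. They had signals of 67.9, 46.3 and 41.9, at ranks 18304, 14038 and 17356, and the replicates did not place them at the same position. The strongest summit of the whole window, with a pooled signal of 259.8 at rank 9420, lay 26 bp inside the neighbouring gene Mvb12. No IDR summit lay closer to wupA than 8795 bp.

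Set side by side, the summits at the starts fell into strong ones at Act87E and Tm1 and weak ones at the other 7 genes that had one. The 7 pooled signals lay between 73.4 and 165.0 around a median of 126.6, and their ranks from 14329 to 26167. With Act87E and Tm1 included, the median of the 9 genes was 133.8, against 460.1 over the 6578 protein-coding genes with a pooled summit within 1000 bp of a TSS. Among those 6578 genes, Act87E stood at percentile 82.8 and Tm1 at 81.3. Act57B, Mhc, Tm2, wupA and Mlc2 stood at percentiles 15.8, 12.7, 11.2, 10.1 and 8.89, and up and Prm at 2.89 and 2.31. The nearest pooled summit lay within 150 bp of a TSS at 7 of the 10 genes (70.0%, against 28.2% of all genes), with a median distance of 62.0 bp and a range of 10 to 1166 bp, against a median of 1397.0 bp over all genes. Each distance is to the nearest of a gene's annotated starts, of which the 10 genes have 1 to 8. For this measure no comparison with genes of like length or number of starts was made. In replicates 1, 2 and 3, a summit within 1000 bp of a TSS was found at 9, 10 and 8 of the 10 genes. The matching shares of all genes were not computed for single replicate lists, so these counts stand without a comparison.

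**Figure D3:**
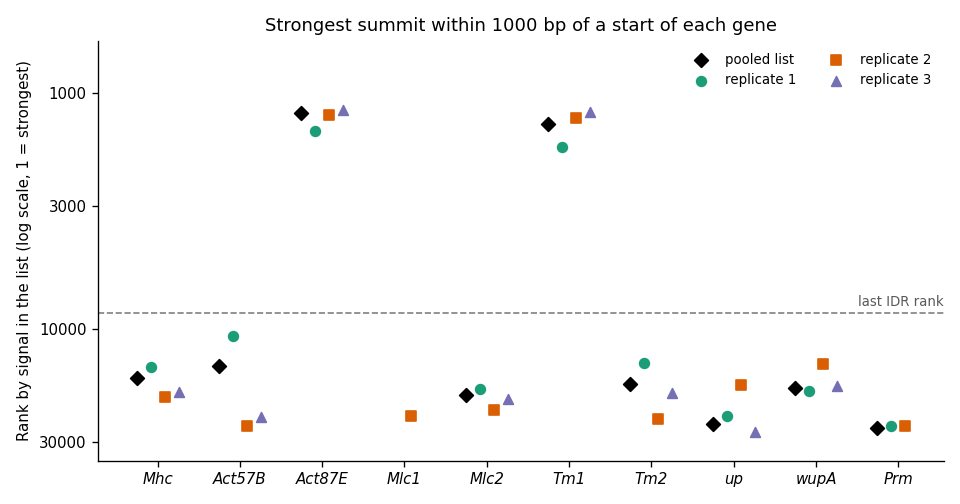
Rank by signal (log scale, 1 is the strongest) of the strongest summit within 1000 bp of a start of each gene, in the pooled list and in replicates 1 to 3, with a dashed line at the last IDR rank of 8549. Act87E and Tm1 stand between ranks 1182 and 1698 in every list, and all points of the other 8 genes lie between ranks 10706 and 27190, below the line.

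The IDR summits of these genes had fewer G and C bases, by median, than the weaker summits. Within 50 bp of the summit the share of G and C had a median of 29.2% over the 12 IDR summits of the contractile protein genes (range 17.8 to 51.5%) and of 42.6% over their 51 summits in the pooled list only (range 11.9 to 64.4%). The same held in the whole lists, where the medians were 32.7% over 8549 IDR summits and 41.6% over 21451 summits in the pooled list only. With the IDR list divided by signal into 5 equal groups, the median share, from the weakest group to the strongest, was 37.6, 36.1, 33.7, 30.7 and 27.7%. The IDR summits of Act87E, Act57B and Mhc and the strongest 2 of Tm1 all had 26.7% G or C or less. The part of base composition in the signal was not tested.

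**Figure D4:**
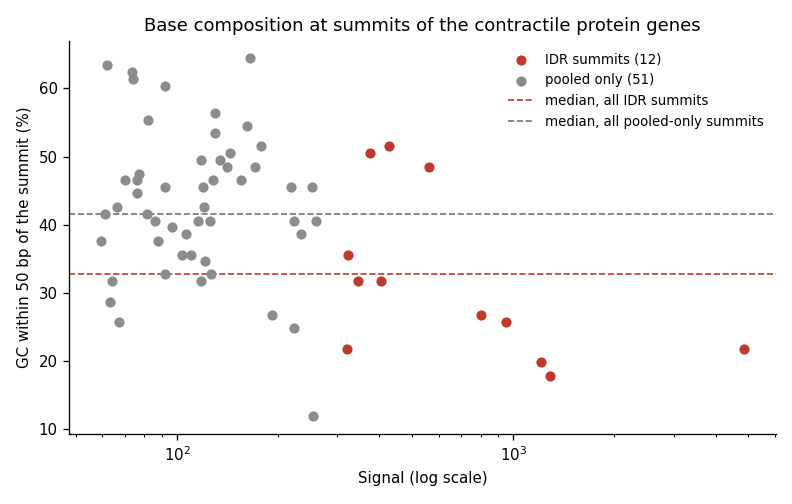
Share of G and C within 50 bp of each summit (vertical axis, %) against its pooled signal (log scale) for the 12 IDR summits and the 51 summits in the pooled list only, with dashed lines at the medians of all IDR summits (32.7%) and of all other pooled summits (41.6%). The 5 summits with the highest signals have 26.7% G or C or less, and the weak summits spread from 11.9 to 64.4%.

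Motifs were searched on both strands within 100 bp of each summit. CACGTG was found at 1 of the 12 IDR summits (8.33%, against 4.07% of all IDR summits), the summit of Tm1 at 15286827, and there it was also the 1 match of the longer GGCACGTG (8.33%, against 1.3%). CACGCG was found at 2 (16.7%, against 7.23%), the Tm1 summits at 15287905 and 15290754. The general E-box CANNTG was found at 8 (66.7%, against 59.3%). It covers CACGTG and both of the other specific boxes searched. Of those, CAGCTG was found at 1 (8.33%, against 8.06%). The box CATATG was found at 2 (16.7%, against 7.19%). GAGAG, the box of the GAGA factor, was found at 2 (16.7%, against 23.0%), and TTATC at 4 (33.3%, against 40.3%). With 12 summits, 1 more or fewer moves a share by 8.33 percentage points, and no difference from all IDR summits was tested.

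The MEF2 box, which that factor binds in muscle genes, was found at 2 of the 12 IDR summits (16.7%, against 12.7% of all IDR summits), those of the actin genes Act57B and Act87E. Over the 63 pooled summits it was found at 12 (19%, against 8.96% of all pooled summits), of which 3 were at Act57B, 2 at each of Act87E, Tm1, Tm2 and wupA, and 1 at Prm. CACGTG was found at 1 of the 63 (1.59%, against 3.77%) and CACGCG at 5 (7.94%, against 6.33%). Summits that lie close together share bases, so the pooled counts are not independent. The weak summit of wupA that every replicate list held is shown as an example, with its MEF2 box in capitals and the plus strand of Release 6.
wupA summit 18115918, chrX:18115868-18115968: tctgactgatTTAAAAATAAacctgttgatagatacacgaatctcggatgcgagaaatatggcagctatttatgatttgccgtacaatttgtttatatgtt

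Further genes of the sarcomere were counted in the same way. Of 25 further genes of the sarcomere and its calcium handling, 7 had an IDR summit within 1000 bp of a TSS (28.0%, interval 12.1 to 49.4%). The share of all genes was 32.1%. In the body or within 5 kb 13 had one (52.0%, against 59.0% of all genes). The strongest were at sls, which encodes the titin-like Sallimus, with a signal of 1303.6, at tmod, whose product caps thin filaments, with 1214.3, at the calcium pump gene SERCA with 1002.8, and at the troponin C gene TpnC47D with 930.7. The actin genes Act79B and Act88F had none. A pooled summit within 1000 bp of a TSS stood at 9 of the 10 contractile protein genes (90.0%), against 13 of these 25 (52.0%) and 47.2% of all genes. A pooled summit without an IDR summit there was found at 7 of the 10 (70.0%), against 6 of the 25 (24.0%) and 15.1% of all genes. These lists are small and the difference was not tested.

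The cytoplasmic actins and the myosin chains of non-muscle cells come from separate genes, whereas Tm1 makes both muscle and cytoskeletal tropomyosin. Of 5 non-muscle counterparts, 4 had an IDR summit within 1000 bp of a TSS (80.0%, interval 28.4 to 99.5%), against 32.1% of all genes. All 5 had one in the body or within 5 kb, against 59.0% of all genes. Act5C, a cytoplasmic actin gene, had a signal of 1905.9 and sqh, the regulatory light chain gene of non-muscle myosin, had 1547.3. The summit at the light chain gene Mlc-c, with 654.4, was nearest to the start of Pop1, and that at the heavy chain gene zip, with 386.6, was nearest to the start of uzip. Act42A, the other cytoplasmic actin gene, had no summit within 1000 bp of its start. A pooled summit without an IDR summit at the start was found at 7 of the 10 contractile protein genes and at 0 of these 5, against 15.1% of all genes. IDR summits numbered 0.595 per 10 kb at the 10 contractile protein genes, 0.392 at the 25 other sarcomere genes and 1.44 at these 5. Over all genes the value was 0.848. The difference between the lists was not tested.

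**Figure D5:**
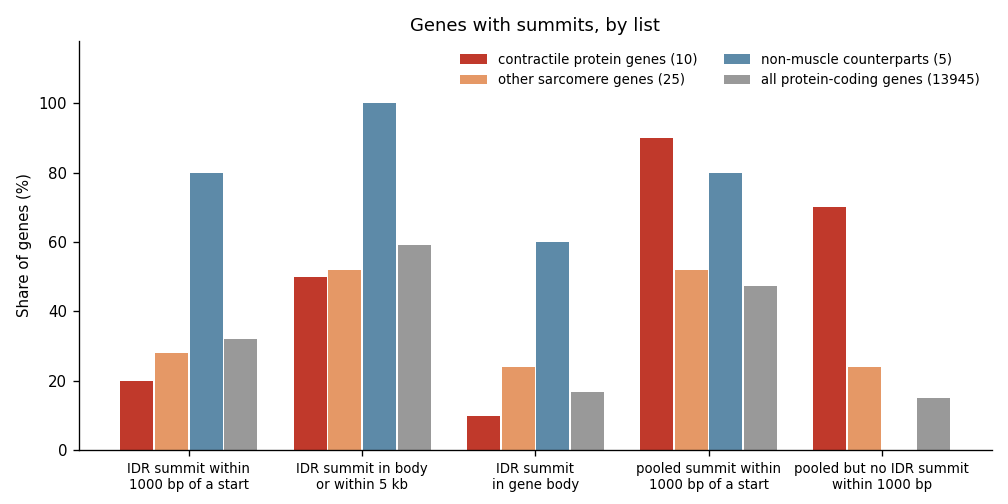
Share of genes (%) with each kind of summit among the 10 contractile protein genes, 25 other sarcomere genes, 5 non-muscle counterparts and all 13945 protein-coding genes. The contractile protein genes have the shortest bars for IDR summits at starts (20%) and in bodies (10%), and the tallest for pooled summits at starts (90.0%) and for pooled summits without an IDR summit (70.0%).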

How the data were processed

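The 10 genes and both comparison lists were chosen with earlier results of these data known. Peak lists of 3 biological replicates, of the pooled reads and of the IDR procedure were used as deposited, on dm6 per the labels. For the aligner and the peak caller, names and settings were not given in the sources used here. The deposited signal of each peak is the authors' own value relative to their control, and was used only to rank and describe peaks within a list. The deposited −log10 q-value was read and not used. A summit is the peak start plus the deposited summit offset.

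Genes and TSSs came from Ensembl release 115, sequences from Release 6, both limited to the chromosome arms, which left out 5 peaks of replicate 1. The intervals are exact (Clopper-Pearson, 95%) and cover counting of genes only. Read depth is unknown. A replicate summit within 100 bp counts as support. Of the other sarcomere genes, Unc-89 was matched by synonym as Obsc, and all other symbols matched directly. All 10 genes are named, and of the other lists the 4 strongest at a TSS (a few genes beyond these were named after their values were seen). The comparison with genes of the same length range was chosen after seeing the data. The study has 1 group, so no test was run. Alternatives changed the list, the distances, the flanks, the replicates and the motif window. The counting was checked on planted positions. Python 3.11.15, pandas 2.3.3, numpy 2.4.6 and scipy 1.17.1 were used.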

Additional observations from a re-analysis of the deposited data

How the results depend on the processing

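Of 81 recomputed values 57 stayed within the spread or within 1.5 times of the reported one, 24 moved and 0 reversed. With the strongest 4274 peaks in place of the IDR list, 2 of the 10 genes had a summit within 1000 bp of a TSS, against 20.7% of all genes. Within the body 1 did (against 10.9%), so both shares were near those of all genes. In the body or within 5 kb 3 did (against 45.2%), with 6 summits in all and 0.297 per 10 kb (against 0.459). With the pooled list, 9 genes (against 47.2% of all genes) had a summit within 1000 bp of a TSS. In the window 10 (against 71.0%) had one and in the body 8 (against 28.2%), with 63 summits and 3.32 per 10 kb (against 2.43). Peaks in the strongest 8549 of all 3 replicates numbered 5790 and gave 0.397 per 10 kb (against 0.596). Leaving out each replicate in turn, 2 to 2 genes were bound within 1000 bp, 4 to 5 in the window and 1 to 1 in the body, with 8 to 10 summits, 0.397 to 0.496 per 10 kb, 83.3 to 91.7% supported summits and a median percentile of 69.2 to 76.0 for the strongest summits. With flanks of 2 kb 3 genes (against 45.1% of all genes), and of 10 kb 9 genes (against 72.5%), held an IDR summit, the wider flanks with 20 summits. Counting only summits in the own body or nearest to the own TSS, 3 genes did. Without Tm1, an alternative chosen after seeing the data, 1 gene was bound at a TSS and 0 in the body, with 5 summits and 0.31 per 10 kb. A pooled summit without an IDR summit at the start was found at 7 genes within 500 bp (against 14.5% of all genes) and at 8 within 2000 bp (against 15.1%). It was found at 6 to 7 (against 11.1 to 12.1%) when both remaining replicates had to show a summit. These alternatives were also chosen after seeing the data. With 250 bp in place of 100 bp, 100% of IDR summits had all replicates. Motif shares moved for CANNTG within 250 bp (91.7%), CATATG within 50 bp (0.0%), GAGAG within 250 bp (66.7%) and TTATC within 50 bp (0.0%) and 250 bp (83.3%), and the cause was not tested beyond the width of the window. No paired analysis was possible because the study has 1 group. Depth is unknown, and 12 summits limit every share given for them.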
